A study of Arabidopsis thaliana x Arabidopsis arenosa and Arabidopsis suecica with 6 samples.

Results

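The 9 genes of Arabidopsis described here encode protective proteins that the plant makes in response to cold, drought and the hormone abscisic acid (ABA). They were chosen by gene code, with earlier results of these data known, and are COR15A (AT2G42540), COR15B (AT2G42530), KIN1 (AT5G15960), KIN2 (AT5G15970), COR47 (AT1G20440), ERD10 (AT1G20450), COR78 (AT5G52310), LTI65 (AT5G52300) and RD22 (AT5G25610). They are 9 of the 17885 genes in the deposited tables, with 12 of 22890 transcript rows. COR15A, ERD10 and LTI65 had 2 transcript models each, and a gene was represented by the model with the highest mean. Messenger RNA was measured in rosette leaves of allotetraploids, plants that carry chromosome sets of both A. thaliana (T) and A. arenosa (A), and each gene has a value for its T copy and its A copy, called homoeologs. Total expression is their sum and the T share is T as a percentage of that sum.

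The F1 cross TATT was made between the resynthesized allotetraploid of generation F8 (AlloF8) and A. thaliana, and TTTA between A. thaliana and AlloF8; both carry 3 T genomes and 1 A genome and form the class T3A1. The F1 cross TAAA was made between AlloF8 and A. arenosa, and AATA between A. arenosa and AlloF8; both carry 1 T genome and 3 A genomes and form the class T1A3. The labels give the parents in these orders and do not say which was the mother. The natural allotetraploid A. suecica was set against AlloF8, its laboratory counterpart made from A. thaliana and A. arenosa; both carry T and A genomes in equal number. All plants were grown at 22 °C in 16 h of light and 20 °C in 8 h of dark with no cold, drought or hormone treatment in the labels, and leaves of allotetraploids were taken at 6 to 7 weeks, before bolting. Each F1 cross was deposited as 1 sample with 3 replicate columns, and A. suecica and AlloF8 with 2 each, taken as 16 libraries. Nothing says that the replicates were separate plants, so the p-values measure the spread between these libraries, which may be technical.

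Cold activates the factor ICE1, which turns on the CBF genes, and CBF proteins bind the CRT/DRE element, whose core is CCGAC, before COR genes. ABA is bound by PYR/PYL receptors, which then block phosphatases such as ABI1 and ABI2; kinases such as OST1 are released and activate the ABF and ABI5 factors, which bind the ABRE element with the core ACGTG. COR15A and COR15B are small proteins of the chloroplast stroma that protect membranes during freezing, and KIN1 and KIN2 are small hydrophilic proteins of the cell interior. COR47 and ERD10 are acidic dehydrins, proteins that stay disordered in water and are thought to shield membranes and other proteins. COR78, also called RD29A, and LTI65, also called RD29B, are large hydrophilic proteins, and their promoters are standard reporters of cold or drought and of ABA. RD22 is a BURP-domain protein of the ABA response, turned on through the factors MYC2 and MYB2.

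The windows shown are the 300 bases before the annotated start of each gene in A. thaliana, chosen because LTI65 was lower in T3A1 while its neighbour COR78 did not pass, and because COR15A and RD22 were higher in A. suecica. They come from the RefSeq copy of the TAIR10.1 assembly (the deposited values were made with TAIR 9) and are written 5′ to 3′ on the strand of the gene. Capitals mark CCGAC and ACGTG on either strand, where the other strand reads GTCGG for CCGAC and CACGT for ACGTG. The windows are chr5:21236721-21237020 (plus strand) for LTI65, chr5:21240417-21240716 (plus strand) for COR78, chr2:17712331-17712630 (minus strand) for COR15A and chr5:8916857-8917156 (minus strand) for RD22.
LTI65: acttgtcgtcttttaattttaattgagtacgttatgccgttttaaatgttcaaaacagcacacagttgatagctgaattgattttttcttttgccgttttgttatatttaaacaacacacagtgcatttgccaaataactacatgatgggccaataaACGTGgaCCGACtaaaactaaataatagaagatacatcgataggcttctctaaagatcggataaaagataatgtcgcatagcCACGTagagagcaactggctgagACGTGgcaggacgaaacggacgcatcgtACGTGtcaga
COR78: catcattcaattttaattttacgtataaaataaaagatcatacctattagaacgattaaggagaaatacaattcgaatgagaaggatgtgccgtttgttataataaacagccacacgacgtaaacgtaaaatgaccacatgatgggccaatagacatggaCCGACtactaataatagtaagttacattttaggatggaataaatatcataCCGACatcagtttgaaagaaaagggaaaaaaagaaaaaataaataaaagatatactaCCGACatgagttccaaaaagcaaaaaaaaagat
COR15A: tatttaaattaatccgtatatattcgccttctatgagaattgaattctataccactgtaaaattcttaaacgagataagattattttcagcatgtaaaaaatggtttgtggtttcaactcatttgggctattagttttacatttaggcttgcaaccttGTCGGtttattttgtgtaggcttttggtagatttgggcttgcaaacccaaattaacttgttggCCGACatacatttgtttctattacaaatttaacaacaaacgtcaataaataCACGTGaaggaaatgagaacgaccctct
RD22: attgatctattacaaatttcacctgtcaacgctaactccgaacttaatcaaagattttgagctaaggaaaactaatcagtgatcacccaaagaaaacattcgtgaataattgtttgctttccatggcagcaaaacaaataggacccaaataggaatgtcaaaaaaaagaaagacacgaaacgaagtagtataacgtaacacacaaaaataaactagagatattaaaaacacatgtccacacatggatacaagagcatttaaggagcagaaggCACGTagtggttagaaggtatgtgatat
The LTI65 window held 4 ABRE cores and 1 CRT/DRE core, whereas that of COR78 held 3 CRT/DRE cores and no ABRE core. In COR15A there were 2 CRT/DRE cores, and its 2 ABRE cores were the same 6 letters CACGTG read from both strands. RD22 had 1 ABRE core in this window, with 2 copies of the MYC site CACATG and 1 of the MYB site TGGTTAG upstream of the start (these last are not in capitals). KIN1 and KIN2 held 1 ABRE core each, and the windows of COR47 and ERD10 held neither core. COR15B has CCGAC once, but nearly all of its window lies inside its neighbour COR15A and it is not shown. This overlap rests on the transcript model that represents COR15A, since its other annotated models end before that window. Of the 9 genes, 4 held CCGAC, 5 held ACGTG, 2 held CACATG and 1 held TGGTTAG. Among 27443 such windows before protein-coding genes, 13.9% held CCGAC, 25.6% held ACGTG, 13.1% held CACATG and 3.88% held TGGTTAG. A match describes letters in the A. thaliana reference, and the A. arenosa promoters were not analysed here. Each window ends at the annotated start of the gene, and bases after that start or further upstream were not searched. A core missing from a window, as for COR78, COR47 and ERD10, can therefore lie outside it.

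Of the 9 genes, 8 lie side by side as 4 pairs. COR15A and COR15B are 7 bases apart and share 82.6% of their aligned coding bases, with a longest identical stretch of 31 bases. KIN1 and KIN2 are 892 bases apart and share 95%, with an identical stretch of 58 bases, and COR47 and ERD10 are 1029 bases apart and share 73.5%, with a stretch of 32 bases. LTI65 and COR78 are 1185 bases apart. Reads were 60 to 83 bases long, so reads of KIN1 and KIN2 above all could have been exchanged between the copies or left out, and the split between them is uncertain.

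The values are RPKM, reads scaled to transcript length and library, and the number of reads behind them is unknown, which leaves no counting interval to give. The summed RPKM of a library was 613044 to 781415. All 6 leaf markers were listed in every group, with a summed level of 7073 to 37491 RPKM, and 0 of the 5 flower, 5 root and 4 seed markers were listed. In bulk leaf RNA, fewer cells that express a gene and less RNA per cell cannot be told apart. Replicate 2 of the F1 crosses was the lowest library of its cross wherever it had a value, for all 9 genes. The libraries of AlloF8 lay far apart for COR15A, COR15B, KIN1 and KIN2 and less so for the rest, as given beside the results. How many of all genes had replicate 2 lowest was not counted.

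**Figure D1:**
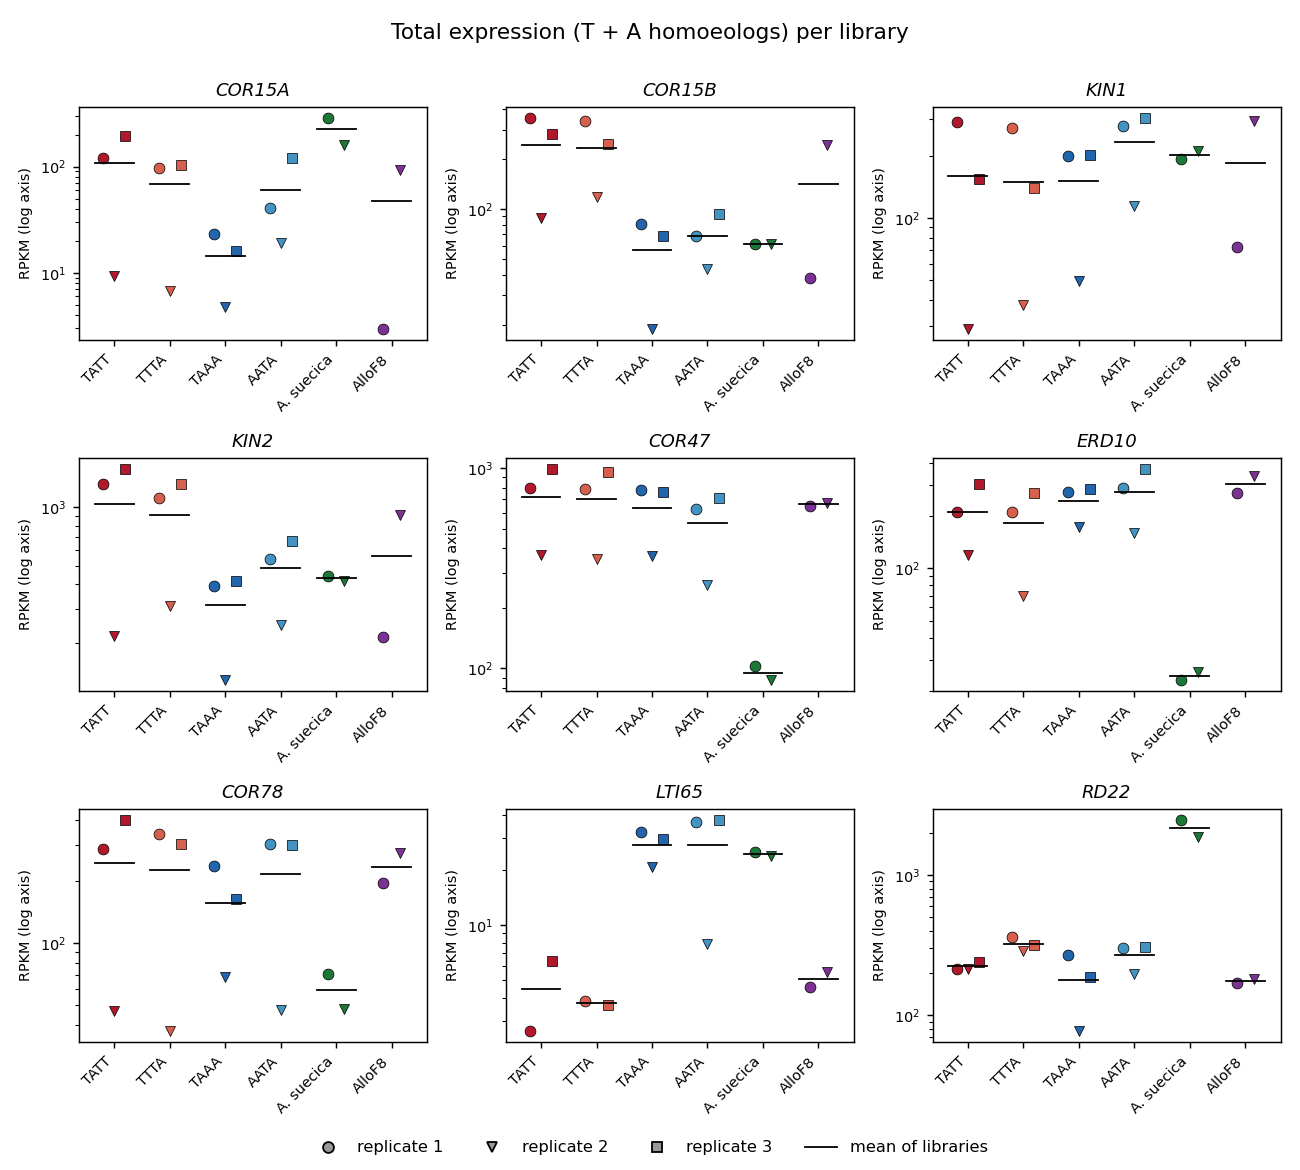
Total RPKM (log axis) of each gene in each library, by group, with replicates as circles (1), triangles (2) and squares (3) and the mean of the libraries as a line. RD22 reached 1860 to 2478 RPKM in A. suecica, and replicate 2 is the lowest point of each F1 cross in which it has a value.

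RPKM values are per length, so levels can be set side by side. KIN2 had the highest mean in TATT, 1035 ± 720.3 RPKM (SD, n = 3), and LTI65 the lowest in TTTA, 3.76 ± 0.148 RPKM (SD, n = 2), where replicate 2 was listed at 0. COR47 was the highest of the 9 genes in TAAA, at 636 ± 234 RPKM (SD, n = 3), and RD22 in A. suecica, at 2169 ± 437 RPKM (SD, n = 2). In order of group mean RPKM, COR15A had A. suecica (224), TATT (108), TTTA (68.9), AATA (60.0), AlloF8 (47.4) and TAAA (14.5). The order for COR15B was TATT (242), TTTA (234), AlloF8 (140.3), AATA (68.4), A. suecica (61.4) and TAAA (56.2). KIN1 was ordered as AATA (233), A. suecica (203), AlloF8 (184), TATT (159), TAAA (151) and TTTA (149.9). Its near copy KIN2 gave TATT (1035), TTTA (912), AlloF8 (560.2), AATA (486), A. suecica (430.4) and TAAA (313). COR15A, COR15B and KIN2 were lowest in TAAA. COR47 had TATT (719.6), TTTA (699.7), AlloF8 (661), TAAA (636), AATA (534) and A. suecica (95.2). ERD10 went through AlloF8 (305), AATA (274), TAAA (244), TATT (211), TTTA (183) and A. suecica (24.2). Both dehydrins were lowest in A. suecica. The group means of COR78 were TATT (244), AlloF8 (236), TTTA (227), AATA (217), TAAA (156) and A. suecica (59). For LTI65 the order was TAAA (27.5), AATA (27.4), A. suecica (24.4), AlloF8 (5.05), TATT (4.48) and TTTA (3.76). RD22 had A. suecica (2169), TTTA (322), AATA (269.5), TATT (223), TAAA (178) and AlloF8 (175). Most neighbours in these orders had libraries that overlapped. The exceptions were A. suecica below its neighbour for COR47 and ERD10 and above it for RD22 and LTI65, and A. suecica above TAAA for KIN2. Such gaps were not counted over all genes.

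The first comparison asked whether total expression of these genes differed between plants with 3 T genomes and plants with 3 A genomes. COR15A, COR15B, KIN2 and COR47 were higher in T3A1, LTI65 and ERD10 were lower, and KIN1, COR78 and RD22 did not pass the test. COR15B had a 3.77-fold higher total in T3A1, and LTI65 a 7.74-fold lower one. Among all 13513 genes tested, 38.4% were called, 16.9% higher and 21.4% lower. The 9 genes had a median change of 0.27 on the log2 scale, and the median of all genes was -0.05. The 6 leaf markers summed to 11735 to 37491 RPKM in T3A1 and 8469 to 27367 in T1A3, with 2 of them higher and 1 lower in T3A1, and their part in the result was not tested. The test was limma on log2(RPKM + 0.5) over the 12 F1 libraries, with a mean per cross and the replicate number as a block, two-sided with Benjamini-Hochberg adjustment over all genes. Its error comes from libraries of the same cross only. On the means of the crosses, 2 against 2, where crosses of a class are the replicates, limma called 0 of the 9 genes and 0 of 13513 genes, with adjusted p = 0.0544 for COR15B and LTI65 and 0.0891 for KIN2.

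Among the chloroplast proteins, COR15B, in replicates 1, 2 and 3, had 355, 88.5 and 282 RPKM in TATT and 339, 118 and 246 RPKM in TTTA, against 80.8, 18.7 and 68.9 RPKM in TAAA and 68.3, 43.4 and 93.6 RPKM in AATA. Within a replicate number, both T3A1 crosses were above both T1A3 crosses, although replicate 2 of TATT lay below replicate 3 of AATA. The change passed the test (log2 1.91, SE 0.179, adjusted p = 0.000163) and kept its call in each of the 15 leave-outs of a library or a replicate number. COR15A had 119.8, 9.32 and 196 RPKM in TATT and 96.3, 6.8 and 104 RPKM in TTTA, against 23, 4.72 and 15.9 RPKM in TAAA and 40.5, 19.1 and 121 RPKM in AATA. The classes overlapped, and TAAA lay below the other crosses in replicates 1, 2 and 3. COR15A passed narrowly (log2 1.07, SE 0.376, adjusted p = 0.0478), but the change was 0.14 without TAAA (adjusted p = 0.839). The call also ended without any 1 of the 8 libraries of replicates 1 and 3, where the change was 0.78 to 1.14 (adjusted p from 0.0755 to 0.12).

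The 2 transcript models of COR15A were close to each other in some libraries and far apart in others. In replicate 1 the first model had 118 RPKM in TATT, against 25.8 in TAAA and 43.3 in AATA, near the values of the second model given above. In replicate 3 it had 4.75 RPKM in TATT and 2.14 in TTTA, against 16.1 in TAAA and 5.33 in AATA, while the second model had 196, 104, 15.9 and 121 RPKM in the same libraries. With the first model in place of the second, the class change of total expression was 0.02 (adjusted p = 0.977 in limma). The first model had 17 and 3.56 RPKM in A. suecica, against 5.08 and 2.14 in AlloF8, so the place of A. suecica at the top of the order of COR15A rests on the second model.

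For the KIN pair, KIN2 had 1317, 217 and 1572 RPKM in TATT and 1110.3, 311 and 1314 RPKM in TTTA, against 391, 129 and 418 RPKM in TAAA and 541, 247 and 669.6 RPKM in AATA. Replicates 1 and 3 of the T3A1 crosses were above all T1A3 libraries, and their replicate 2 was not. KIN2 was higher in T3A1 (log2 1.12, SE 0.182, adjusted p = 0.00195), but did not pass without replicate 1 of every cross (0.99, adjusted p = 0.056) or without replicate 3 (0.97, adjusted p = 0.0597). KIN1, its near copy, had 293, 28.9 and 155 RPKM in TATT and 271, 38.1 and 140.3 RPKM in TTTA, against 201, 49.7 and 202 RPKM in TAAA and 278, 114 and 306 RPKM in AATA. These ranges overlapped, and KIN1 did not pass (log2 -0.55, SE 0.227, adjusted p = 0.0805, 95% interval -1.06 to -0.04), whereas it passed as lower in T3A1 without replicate 1 of TATT (-0.72, adjusted p = 0.0396) or of AATA (-0.74, adjusted p = 0.0272), or of every cross (-0.96, adjusted p = 0.0326).

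The dehydrin COR47 had 793, 369.9 and 996 RPKM in TATT and 789, 352 and 958 RPKM in TTTA, against 778, 366 and 765 RPKM in TAAA and 628, 260.1 and 714 RPKM in AATA. AATA was the lowest cross within each replicate number, and in replicate 3 both T3A1 crosses were above both T1A3 crosses. The rise of COR47 in T3A1 was small (log2 0.27, SE 0.0927, adjusted p = 0.0459). Its call held without replicate 2 of TAAA and ended without any 1 of the other 11 libraries (adjusted p from 0.0648 to 0.131). ERD10 had 209, 119 and 305 RPKM in TATT and 209, 69.8 and 269.9 RPKM in TTTA, against 275, 173 and 285 RPKM in TAAA and 289, 159 and 373 RPKM in AATA. The classes overlapped, and ERD10 was lower in T3A1 (log2 -0.49, SE 0.147, adjusted p = 0.0271), with a call that ended without replicate 1 of TATT or TAAA, without replicate 2 of TAAA or without any replicate of AATA (adjusted p up to 0.0744). It also ended without replicate 1 of every cross (-0.52, adjusted p = 0.154) or without replicate 3 (-0.64, adjusted p = 0.0729).

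LTI65 had 2.63 and 6.32 RPKM in replicates 1 and 3 of TATT and 3.86 and 3.65 in those of TTTA, against 32.2, 20.9 and 29.5 in TAAA and 36.6, 7.88 and 37.6 in AATA. All 4 T3A1 values were below all 6 T1A3 values, and replicate 2 of both T3A1 crosses, listed at 0, was left out of the fit. The fall was the largest among the 9 genes (log2 -2.95, SE 0.326, adjusted p = 0.000799) and kept its call in each of the 15 leave-outs. Its neighbour COR78 had 286, 46.6 and 399.7 RPKM in TATT and 339.9, 37.2 and 303 RPKM in TTTA, against 236, 68.6 and 163 RPKM in TAAA and 305, 47.3 and 299 RPKM in AATA. The classes overlapped for COR78, and its total did not pass the test (log2 0.14, SE 0.222, adjusted p = 0.648, 95% interval -0.36 to 0.64). Without replicate 2 of every cross COR78 was higher in T3A1 by 0.44 (adjusted p = 0.047). RD22 had 215, 215 and 239.6 RPKM in TATT and 363, 285 and 319 RPKM in TTTA, against 269, 77 and 187 RPKM in TAAA and 302, 197 and 309 RPKM in AATA. Its libraries overlapped and it did not pass (log2 0.39, SE 0.20, adjusted p = 0.148, 95% interval -0.06 to 0.84), but passed as higher without replicate 1 of TAAA (0.56, adjusted p = 0.0415).

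**Figure D2:**
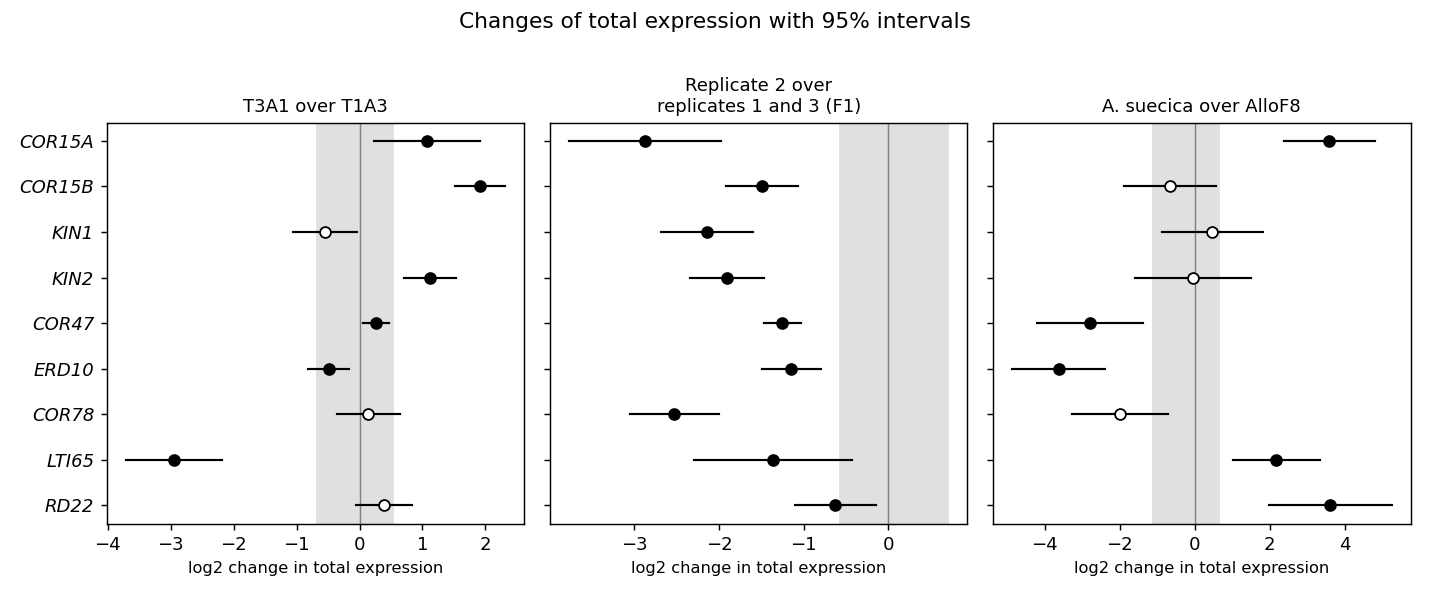
Log2 change of total expression of each gene in T3A1 over T1A3 (left), in replicate 2 over replicates 1 and 3 of the F1 crosses (middle) and in A. suecica over AlloF8 (right). Points are limma estimates, filled where they passed the test, bars are 95% intervals, and the grey band runs from the 10th to the 90th percentile of all genes tested; all 9 genes lie below 0 in the middle panel.

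The second comparison took each homoeolog by itself, as its number of genome copies went between 3 and 1. The T homoeolog was higher in T3A1 for 8 of the 9 genes and lower for LTI65; of all 13435 T homoeologs tested, 96.6% were called, 96.3% higher and 0.246% lower. The A homoeolog was lower in T3A1 for 8 of the 9 genes and did not pass for COR15B; of all 13455 A homoeologs 97.1% were called, 96.9% lower and 0.238% higher. A homoeolog in proportion to its copies would change by the log2 of 3. The median changes of the 9 genes were 2.14 for T and -1.19 for A, and those of all genes were 1.41 for T and -1.44 for A.

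LTI65 was the only one of the 9 genes whose T homoeolog was lower with more copies. It had 1.74 and 4.75 RPKM of the T homoeolog in replicates 1 and 3 of TATT and 2.29 and 2.87 in TTTA, against 4.44, 3.83 and 5.55 in TAAA and 4.76, 2.14 and 6.08 in AATA. The classes overlapped, and the fit, which compares the same replicate numbers, gave a fall (log2 -0.81, SE 0.222, adjusted p = 0.00691) that did not pass without the replicate block (-0.56, adjusted p = 0.108) or without replicate 1 of every cross (-0.59, adjusted p = 0.115). Its A homoeolog had 0.887 and 1.57 RPKM in TATT and 1.57 and 0.785 in TTTA, against 27.8, 17 and 23.9 in TAAA and 31.9, 5.73 and 31.6 in AATA. There the classes did not overlap and the fall was 17.5-fold (log2 -4.13, SE 0.331, adjusted p = 3.96e-06).

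COR15B was the one gene of the 9 whose A homoeolog did not pass. It had, for that homoeolog, 83.3, 17.8 and 61 RPKM in TATT and 79.8, 18.6 and 67.1 RPKM in TTTA, against 54.6, 11.7 and 50.4 RPKM in TAAA and 35.2, 26.9 and 56.7 RPKM in AATA. With 1 A genome in T3A1 and 3 in T1A3, the 2 classes overlapped and the change was log2 0.39, SE 0.218, adjusted p = 0.105, 95% interval -0.09 to 0.88. It passed as higher in T3A1 without replicate 2 of every cross (0.57, adjusted p = 0.0095), without replicate 2 of AATA (0.61, adjusted p = 0.0042) and on the cross means (0.47, adjusted p = 0.0427). Its T homoeolog rose 7.9-fold (log2 2.98, SE 0.15, adjusted p = 3.01e-07).

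The largest rises of a T homoeolog were those of KIN1, KIN2 and COR15A. KIN1 had 208, 15.2 and 82.7 RPKM in TATT and 179, 19.6 and 73.8 RPKM in TTTA, against 14.4, 1.37 and 2.73 RPKM in TAAA and 20.6, 5.26 and 5.54 RPKM in AATA. Each T3A1 library of a replicate number was above both T1A3 libraries, and the change was log2 3.35, SE 0.267, adjusted p = 7.41e-07. The T homoeolog of KIN2 changed by log2 3.29 and that of COR15A by 3.23, against 2.08 for COR47, 2.14 for RD22, 1.97 for COR78 and 1.46 for ERD10. The A homoeologs fell by 2.43 for ERD10, by 1.75 for KIN1, by 1.44 for COR47, by 1.19 for COR15A, by 1.13 for KIN2, by 1.01 for RD22 and by 1.0 for COR78 on the log2 scale. Without the replicate block the falls of COR15A and COR78 did not pass (adjusted p = 0.2 and 0.197), and that of COR15A did not on cross means (adjusted p = 0.297) or without replicate 2 (-0.54, adjusted p = 0.0807). The fall of RD22 did not pass without replicate 3 (-0.79, adjusted p = 0.0641).

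**Figure D3:**
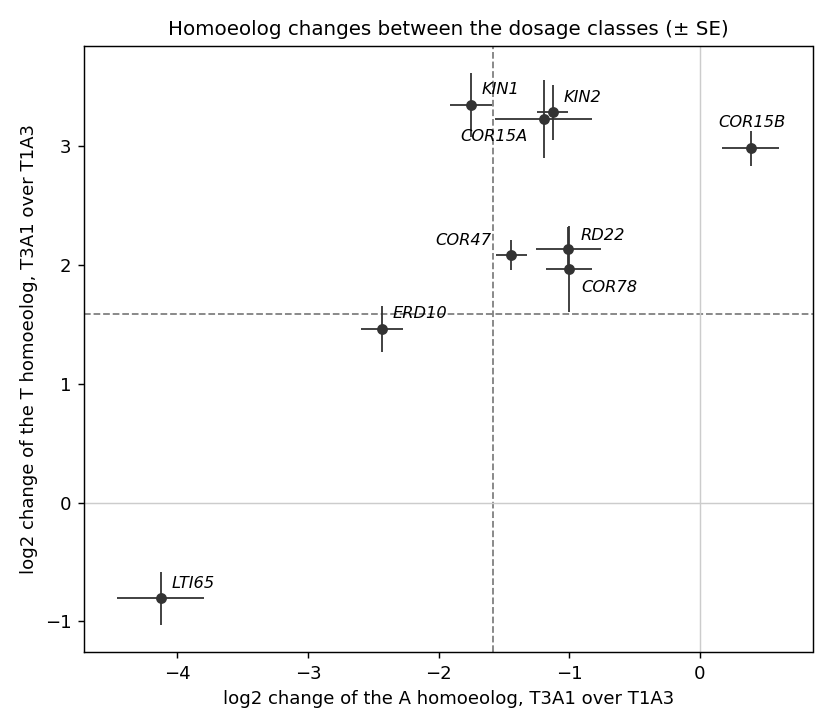
Log2 change between T3A1 and T1A3 of the A homoeolog (horizontal) and the T homoeolog (vertical) of each gene, with standard errors as bars. Dashed lines mark the change of a homoeolog in proportion to its copies; LTI65 is low in both homoeologs and COR15B lies to the right of 0.

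Within a library, the share of the T homoeolog followed the class for all 9 genes. T shares of T3A1 libraries and T1A3 libraries did not overlap for any of them. The share of all genes without such overlap was not counted. By the test, the ratio of T to A was higher in T3A1 for all 9, as for 99.7% of the 13377 genes tested (0.015% were lower). A ratio in proportion to the copies would differ by 3.17 on the log2 scale. COR15A, KIN1, KIN2, COR47 and ERD10 differed by more than that and COR15B by less, while LTI65, COR78 and RD22 did not pass against it. Over all genes 48% were called against the copy ratio, 6.06% for more and 41.9% for less. The 9 genes had a median difference of 3.52, and all genes one of 2.88.

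KIN1 had a T share below its share of T genomes in every library. It was 71, 52.6 and 53.3% in TATT and 65.8, 51.5 and 52.6% in TTTA, against 7.16, 2.76 and 1.36% in TAAA and 7.41, 4.62 and 1.81% in AATA, where 3 of 4 and 1 of 4 genomes are T. With equal copies it was 11 and 10.2% in A. suecica and 3.58 and 3.21% in AlloF8. Its log2 ratio differed by 5.1 between the classes (SE 0.232, adjusted p = 0.000119 against the copy ratio). The near copy KIN2 had a T share of 86.9, 78.2 and 84.7% in TATT and 83.7, 79.4 and 83.2% in TTTA, against 18.6, 18.3 and 14% in TAAA and 20.7, 21.7 and 17.8% in AATA.

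COR15A had a T share of 84.5 ± 2.11% in T3A1 and 16.5 ± 5.91% in T1A3 (SD, n = 6 libraries each), a log2 difference of the ratio of 4.42 (SE 0.139, adjusted p = 8.26e-05 against the copy ratio). For its neighbour COR15B the shares were 78 ± 3.86% in T3A1 and 37.1 ± 7.2% in T1A3, and the ratio differed by 2.59 (SE 0.16, adjusted p = 0.0115), less than the copies. COR15B did not pass without replicate 1 of every cross (2.75, adjusted p = 0.134) or without replicate 3 (2.56, adjusted p = 0.0532). KIN2 differed by 4.41 (adjusted p = 0.00013) and ERD10 by 3.89 (adjusted p = 0.0034). COR47 differed by 3.52 (adjusted p = 0.0349), a call that ended in 11 of the 15 leave-outs, with a pseudocount of 0.1 and without the replicate block. For LTI65 the difference was 3.32 (95% interval 2.87 to 3.77), for COR78 2.97 (2.36 to 3.57) and for RD22 3.14 (2.86 to 3.42), intervals that hold the copy ratio.

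Averaged over the 4 crosses, the copies of the classes cancel and the mean log2 ratio gives the mean bias per genome copy. COR15B was biased to T (log2 0.54, SE 0.0802, adjusted p = 5.77e-05), and KIN1 (log2 -2.08, SE 0.116, adjusted p = 1.88e-08), COR78 (log2 -0.73, SE 0.138, adjusted p = 0.000421), LTI65 (log2 -0.45, SE 0.101, adjusted p = 0.002) and RD22 (log2 -0.37, SE 0.0649, adjusted p = 0.00022) were biased to A. COR15A, KIN2, COR47 and ERD10 did not pass, with biases of 0.08, 0.06, -0.11 and 0.00. Their class means lay on opposite sides of equal shares: counted per genome copy, the T share of COR15A was 64.6 ± 3.82% in T3A1 and 36.3 ± 11.6% in T1A3 (SD, n = 6 libraries each). Per copy it was 61.6 ± 5.4% in T3A1 and 40.4 ± 4.41% in T1A3 for KIN2, 56.5 ± 5.12% in T3A1 and 43.7 ± 7.27% in T1A3 for ERD10, and 51.2 ± 6.92% in T3A1 and 45 ± 3.06% in T1A3 for COR47. Single libraries of COR47 and ERD10 fell on the other side from their class mean. The per-copy share of COR47 was 44.3% in replicate 2 of TATT and 40.8% in replicate 2 of TTTA. For ERD10 it was 46.8% in replicate 2 of TATT, 51.3% in replicate 1 of TAAA and 53.2% in replicate 1 of AATA. Of all genes 78.1% were called, 35% to T and 43.1% to A. The bias of LTI65 did not pass without replicate 1 of every cross (-0.13, adjusted p = 0.496). It was -0.29 without replicate 2 of TAAA, -0.70 without replicate 2 of every cross and -0.74 with zeros kept, and passed in these 3.

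**Figure D4:**
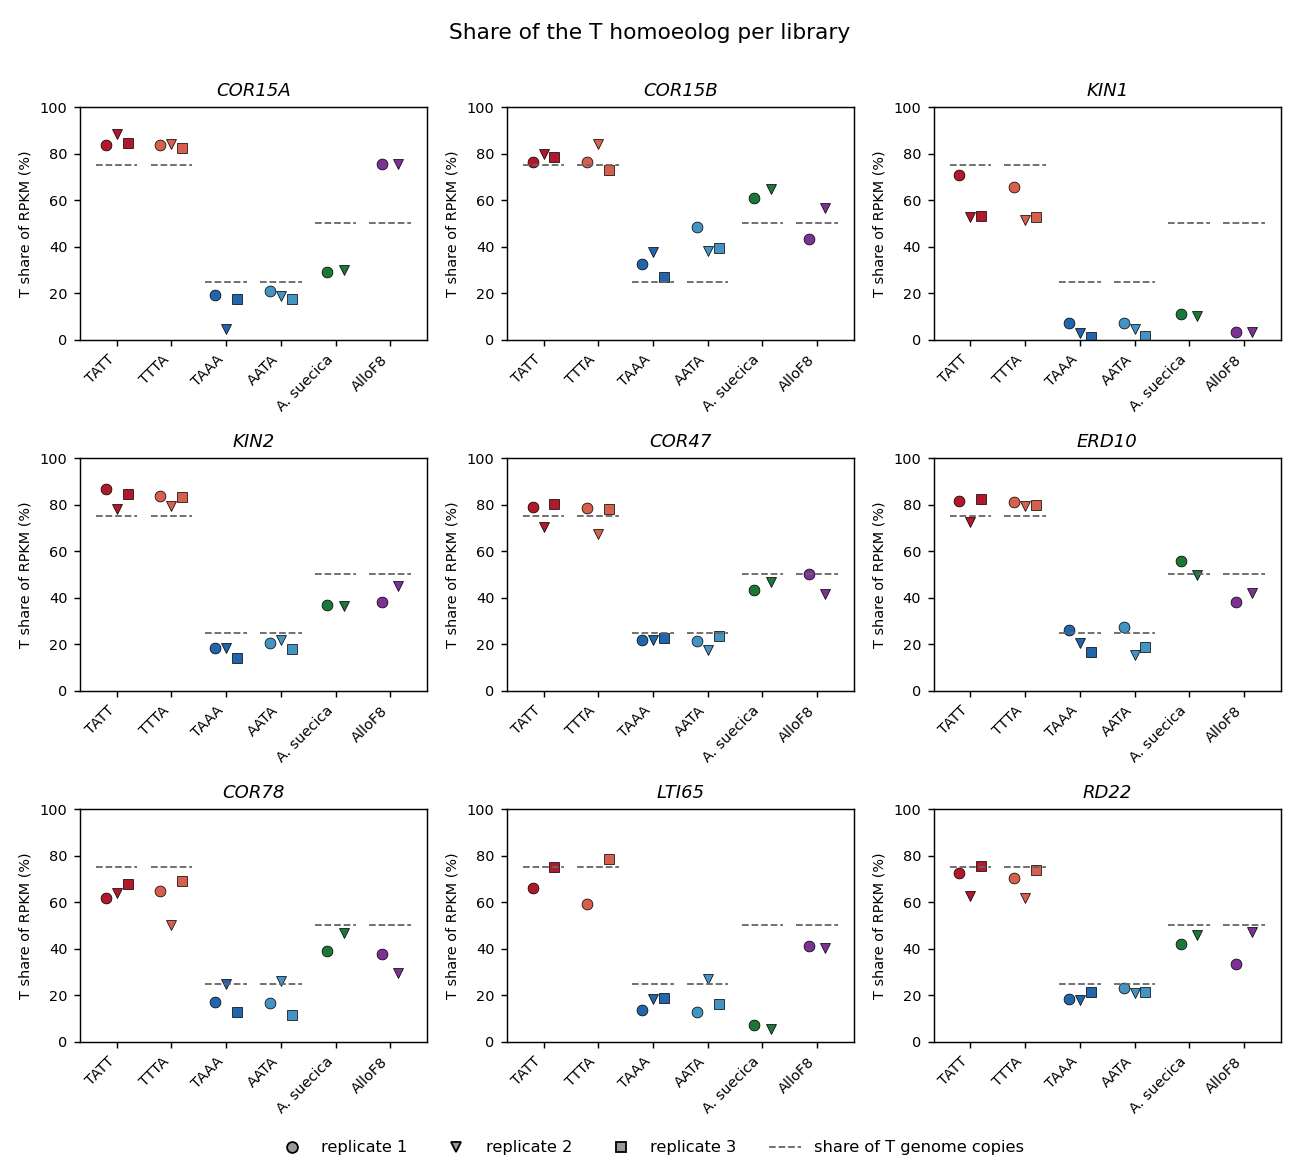
T homoeolog as a percentage of total RPKM in each library, by group, with the share of T genome copies as a dashed line and replicates as circles (1), triangles (2) and squares (3). The T3A1 libraries lie above all T1A3 libraries for each gene, and KIN1 lies below the dashed line in every library.

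The crosses of a class differ in the order of their parents. Between TATT and TTTA 0 of the 9 genes passed, and limma called 0 of 13513 genes (490 at unadjusted p under 0.05), 0%. RD22 had 215, 215 and 239.6 RPKM in TATT and 363, 285 and 319 in TTTA, and did not pass (log2 -0.52, SE 0.282, adjusted p = 0.998). Between TAAA and AATA 0 of the 9 passed as well, where 7.42% of all genes did, 2.18% higher in TAAA and 5.25% lower. COR15A was nearest to the threshold there, with 23, 4.72 and 15.9 RPKM in TAAA against 40.5, 19.1 and 121 in AATA. These libraries overlapped by 1 value, replicate 2 of AATA, and the change was log2 -1.87, SE 0.532, adjusted p = 0.06. It passed after each library was rescaled to 1 median (adjusted p = 0.0471), without replicate 2 of every cross (adjusted p = 0.0138) and without replicate 2 of TATT, TTTA or TAAA (adjusted p = 0.0394, 0.0476 and 0.0495). With its first transcript model the change was -0.34 (adjusted p = 0.79). The interaction of order with class passed for 0 of the 9 genes (adjusted p = 0.222 for COR15A) and for 0.0148% of all genes.

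Replicate 2 had stood apart in earlier results of these data and was therefore set against replicates 1 and 3, so this comparison describes these libraries. All 9 genes were lower in replicate 2, from log2 -2.88 for COR15A and -2.53 for COR78 through -2.14 for KIN1, -1.9 for KIN2, -1.49 for COR15B, -1.36 for LTI65, -1.25 for COR47 and -1.15 for ERD10 to -0.62 for RD22. Of the 13479 genes tested, 33.5% were called, 15.3% lower in replicate 2 and 18.2% higher. The median of the 9 genes was -1.49 on the log2 scale, against 0.03 for all genes. In replicate 2 COR78 had 46.6 RPKM in TATT, 37.2 in TTTA, 68.6 in TAAA and 47.3 in AATA, against 163 to 399.7 RPKM in replicates 1 and 3. The sets did not overlap for COR78 (log2 -2.53, SE 0.236, adjusted p = 0.00041). Within its cross replicate 2 was the lowest library in 4 of 4 crosses for 8 of the genes and in the 2 of 2 crosses with a value for LTI65, although by little for RD22 in TATT, with 214.8 RPKM in replicate 2 against 215.5 and 239.6 in replicates 1 and 3. The shares of all genes that were lowest in every cross, or whose sets did not overlap, were not counted.

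The calls of LTI65 (adjusted p = 0.0357) and RD22 (adjusted p = 0.0472) were near the threshold. LTI65 changed by -0.55 without replicate 2 of AATA (adjusted p = 0.352), and RD22 by -0.32 without replicate 2 of TAAA (adjusted p = 0.135). These calls ended in 8 and 11 of 14 leave-outs. With its first transcript model COR15A changed by -0.96 and did not pass (adjusted p = 0.207). The replicate 2 difference was not shown to differ between the classes, since its interaction passed for 0 of the 8 genes that could be tested (adjusted p = 0.0833 for COR15A) and for 1.8% of all genes. Other markers moved with replicate 2. All 6 leaf markers were lower, by a median of -1.21, with a sum of 8469 to 17809 RPKM in replicate 2 against 17495 to 37491 in replicates 1 and 3. The 2 senescent leaf markers that were listed, SAG13 and WRKY53, were higher, by a median of 1.84, with a sum of 55.6 to 149.6 RPKM against 7.85 to 72.4. Their part in the result was not tested, and the labels do not say what the replicate numbers stand for.

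The last comparison set natural A. suecica against AlloF8. RD22, COR15A and LTI65 were higher in A. suecica, ERD10 and COR47 were lower, and COR15B, KIN1, KIN2 and COR78 did not pass. Of 12618 genes tested 4.14% were called, 1.23% higher and 2.92% lower. The median of all genes was -0.18 on the log2 scale as deposited and -0.01 after each library was rescaled to 1 median. With 2 libraries in each group, limma took the error of each gene wholly from its trend over all genes, so a gene's own spread did not enter. The libraries of AlloF8 also lay far apart in the leaf markers, which summed to 25188 and 21056 RPKM in A. suecica, against 7073 and 32762 in AlloF8, and the senescent markers summed to 9.88 and 4.71 RPKM in A. suecica, against 88.6 and 13.1 in AlloF8. Of these markers 0 of 6 leaf markers passed and 1 of 1 senescent marker tested was lower; their part in the results was not tested.

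RD22 had 2478 and 1860.2 RPKM in A. suecica, against 169.8 and 181 in AlloF8. The T homoeolog had 1043 and 854 RPKM in A. suecica against 57 and 85.2 in AlloF8, and the A homoeolog had 1435 and 1006 against 113 and 95.9. The groups did not overlap, and the total was 12.2-fold higher (log2 3.61, SE 0.835, adjusted p = 0.00112); without either A. suecica library the change was 3.4 or 3.82 and did not pass (adjusted p = 0.137 and 0.0901). Rescaling gave 3.79 (adjusted p = 0.0512) and the replicate block an adjusted p of 0.0792. In a limma fit on all 16 libraries RD22 passed (adjusted p = 0.000355).

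ERD10 had 22.9 and 25.6 RPKM in A. suecica, against 271 and 339.9 in AlloF8, and was 12.3-fold lower (log2 -3.62, SE 0.635, adjusted p = 2.86e-06). It kept its call in each of the 4 leave-outs, after rescaling and with the replicate block. The other dehydrin, COR47, had 103 and 87.3 RPKM in A. suecica, against 647 and 674 in AlloF8. It was 6.93-fold lower (log2 -2.79, SE 0.721, adjusted p = 0.00534), and did not pass without replicate 1 or 2 of A. suecica (adjusted p = 0.229 and 0.423), after rescaling (adjusted p = 0.0633) or with the replicate block (adjusted p = 0.071). For both dehydrins the 2 A. suecica libraries lay below all other 14 libraries. How many of all genes had both A. suecica libraries lowest was not counted. Both dehydrins also passed in a limma fit on all 16 libraries (adjusted p = 0.0113 for COR47 and 0.00207 for ERD10).

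LTI65 had 24.9 and 23.9 RPKM in A. suecica, against 4.57 and 5.52 in AlloF8 (log2 2.17, SE 0.591, adjusted p = 0.0103). In a limma fit on all 16 libraries its adjusted p was 0.0399. The A homoeolog had 23 and 22.6 RPKM in A. suecica against 2.68 and 3.29 in AlloF8, and the T homoeolog had 1.85 and 1.37 RPKM in A. suecica against 1.89 and 2.23 in AlloF8. The T share was 7.44 and 5.74% in A. suecica and 41.3 and 40.4% in AlloF8, and these differences between homoeologs were not tested. The call ended in each of the 4 leave-outs, where the change stayed between 2.05 and 2.3 (adjusted p from 0.139 to 0.4).

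COR15A had 288 and 159 RPKM in A. suecica, against 2.94 and 91.8 in AlloF8, where the libraries were far apart. The change was log2 3.59, SE 0.617, adjusted p = 1.70e-06, and 1.22 without replicate 1 of AlloF8 (adjusted p = 0.889). It also did not pass after rescaling (adjusted p = 0.277), with the replicate block (adjusted p = 0.0764), in a fit on all 16 libraries (adjusted p = 0.185) or with its first transcript model (1.14, adjusted p = 0.256). Its T share was 29.1 and 29.9% in A. suecica and 75.6 and 75.5% in AlloF8, close between replicates although the AlloF8 totals were not, and this difference was not tested. COR78 had 70.5 and 47.6 RPKM in A. suecica, against 197 and 274 in AlloF8 (log2 -1.99, SE 0.654, adjusted p = 0.0531), and passed as lower where transcripts were summed for every gene (adjusted p = 0.043). COR15B had 61.3 and 61.4 RPKM in A. suecica against 38.3 and 242 in AlloF8 (95% interval of the log2 change -1.88 to 0.58). KIN1 had 194 and 211 RPKM in A. suecica against 72.4 and 296 in AlloF8 (-0.88 to 1.81), and KIN2 had 442 and 419 RPKM in A. suecica against 215 and 905 in AlloF8 (-1.58 to 1.5). For these 3 genes the AlloF8 values lay on both sides of the A. suecica values.

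Other genes of the cold and ABA pathways were taken from 7 lists with 67 genes, of which 63 were listed in the tables. In total expression between the classes, 50 could be tested, 9 were higher in T3A1, 7 lower and 34 did not pass (median -0.14 on the log2 scale), where 16.9% of all genes were higher and 21.4% lower. For the cold regulators, 1 of 8 tested was higher and 0 were lower. The higher one was ICE1, with 9.75, 8.05 and 7.57 RPKM in TATT and 9.11, 7.04 and 7.58 in TTTA, against 4.58, 3.81 and 4.68 in TAAA and 5.54, 4.6 and 6.26 in AATA (log2 0.69, SE 0.098, adjusted p = 0.00108). The CBF genes that act below it were listed in few libraries and were not tested. CBF2 reached 27.9 RPKM in replicate 2 of TTTA, 11.3 in replicate 3 of TATT and 9.0 in replicate 3 of TTTA, against 4.68 in replicate 3 of TAAA and 6.08 and 4.92 in replicates 1 and 3 of AATA, and its only other value was 2.9 in replicate 2 of AlloF8. CBF1 was listed in replicate 3 of TATT (4.31 RPKM) and replicate 2 of TTTA (6.98 RPKM) only, and CBF3 in A. suecica (4.91 and 4.22 RPKM) only.

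On the ABA side, 2 of 8 receptors tested were lower in T3A1, PYL1 (log2 -0.64, SE 0.107, adjusted p = 0.00226) and PYL9 (-0.50), and 0 were higher. Of 5 phosphatases ABI2 was lower (-0.58), of 3 kinases OST1 was lower (-0.39), and of 5 genes of ABA synthesis and breakdown ABA3, which is needed for the molybdenum cofactor of the last step, was lower (-0.63). Of 5 ABA transcription factors tested, ABF2 was lower (log2 -0.93, SE 0.194, adjusted p = 0.00606) and ABF4 higher (0.39), and ABF3 (-0.06) and MYC2 (-0.37) did not pass. ABI5 was listed in 1 library, and MYB2 in too few of each cross to be tested. Among 16 other cold, drought and ABA targets, 7 were higher and 1 lower, with a median of 0.21. The largest rises were those of COR413IM1, a protein of the inner chloroplast envelope (log2 1.88, SE 0.159, adjusted p = 0.000109), COR28 (1.5) and HVA22D (1.44), and the fall was that of the oil-body protein gene RD20 (-0.60). COR413IM1 had 222, 44.6 and 208 RPKM in TATT and 193, 67.5 and 168 in TTTA, against 52.6, 7.44 and 42.7 in TAAA and 71.4, 20.2 and 67.4 in AATA, with replicate 2 the lowest in each cross.

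In replicate 2 against replicates 1 and 3, 11 of the 50 pathway genes were lower, 6 higher and 33 did not pass (median 0.03), where 15.3% of all genes were lower and 18.2% higher. Among the other targets 7 of 16 were lower and 3 higher, with COR413IM1 at -2.0, RD20 at -1.72 and HVA22D at -0.82 on the log2 scale; the higher 3, named after their values were seen, were COR27 (0.72), RAB18 (0.51) and ERD15 (0.48). Of the 8 cold regulators 2 were higher and 0 lower (median 0.49), MYB15 (1.25) and CAMTA3 (0.81), likewise named after their values were seen. ICE1 (-0.22), ABF2 (0.38), ABF3 (-0.31), ABF4 (0.07) and MYC2 (-0.07) did not pass there. In A. suecica against AlloF8, 42 pathway genes were tested, 4 were higher, 6 lower and 32 did not pass (median -0.22), where 1.23% of all genes were higher and 2.92% lower. ABF3 was higher (2.44), with 27.8 and 20.4 RPKM in A. suecica against 4.19 and 3.75 in AlloF8. The other 3 higher genes, named after their values were seen, were ABA1 (2.36), ABI2 (2.12) and RAB18 (2.04). The 6 lower ones were 2 of 6 receptors (list median -1.45), 2 of 6 cold regulators (list median -1.11) and 2 of 14 other targets (list median -0.92).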

How the data were processed

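Per the labels, polyadenylated RNA of rosette leaves was made into libraries and read on an Illumina Genome Analyzer, and the build is TAIR 9, per the submitters' processing notes. The deposited values are RPKM of the T and A homoeolog of each transcript, made by the authors; how reads were aligned and assigned to a homoeolog is not given in the sources used here, and a read that cannot be assigned would bear on every T share. T plus A rounded exactly to 6 significant digits in 99.992% of 301035 nonzero cases (within a relative 1e-09), against 0.0747% for T alone, as if totals were made first and then shared out. RPKM keep no read depth. Values listed at 0 were taken as missing, since no other total lay below 2 RPKM and 4.8 to 13.9% of transcripts of a library were at 0. A 0 can therefore also stand for a level below about 2 RPKM. For LTI65, whose replicate 2 was at 0 in TATT and TTTA, this raises the T3A1 means and keeps these libraries out of its comparisons.

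Genes with at least 2 values per cross and a mean of at least 1 RPKM were fitted with limma 3.58.1 in R 4.3.3, on log2(RPKM + 0.5), with a trend of the error on the mean. Fold changes are on this scale and understate those of low genes. The T/A ratio was fitted in the same way on the difference of the 2 log values. A p adjusted by Benjamini-Hochberg under 0.05 was taken as passing. The replicate number was a block in the F1 fit, since deviations of same-numbered libraries from their cross means correlated at 0.147 to 0.69 in 18 of 18 pairs of same-numbered libraries over 12174 genes, against -0.639 to 0.526 for other numbers; the labels do not say what the numbers share. A. suecica and AlloF8 were fitted by themselves without it.

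The scripts were tested on simulated data. Members and pathway lists were chosen with earlier results of these data known. Named with values were all members, the factors ICE1, CBF1, CBF2, CBF3, ABI5, ABF2, ABF3, ABF4, MYC2 and MYB2, and per pathway list up to 3 genes with the largest rise and fall between the classes past the threshold. Alternatives were other pseudocounts, low-value filters, rescaling to 1 median, zeros kept, transcripts summed, no block or a block, cross means, and leaving out each library, replicate number or cross. Coding sequences were compared in place of the planned proteins. Promoter and coding sequences are RefSeq's for TAIR10.1 and come from A. thaliana; all 9 genes matched.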

Additional observations from a re-analysis of the deposited data

Results flagged for a closer look

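Among the 6 libraries of a class, a library was picked out where its gap to the nearest other one was large against the range of the class. This was checked for the total and the T share of the 9 genes in both classes, 36 groups in all. The cut-off picks out about 1 in 20 groups of independent, normally spread values. That rate does not apply as it stands here, since a class pools 2 crosses and a replicate 2 that stood apart, and the groups share libraries. COR15A gave 3 of the 4. Its T share was 88.5% in replicate 2 of TATT, where the other T3A1 libraries held 82.2 to 84.4%. In T1A3 its T share was 4.7% in replicate 2 of TAAA, where the other libraries held 17.4 to 20.9%, and its total was 121 RPKM in replicate 3 of AATA, where they held 4.72 to 40.5 RPKM. ERD10 had a T share of 72.5% in replicate 2 of TATT, where the other T3A1 libraries held 79.3 to 82.4%. In 3 of these 4 cases the library was a replicate 2.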

How the results depend on the processing

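The direction of 7 of 1487 values of single genes turned under an alternative, and 131 crossed the threshold (117 no longer passed, 14 newly did); of 226 counts of genes called among the 9, 209 stayed within 1.5 times. The class calls in total expression, 6 as reported, were 2 without the replicate block (COR15B and LTI65), 0 on cross means, 3 without TTTA and 3 without TAAA, and 2 to 6 without single libraries or replicate numbers; COR78 there was -0.12 without replicate 3, -0.05 without replicate 3 of TAAA and at most 0.44. TAAA against AATA called 1 after rescaling and 0 to 2 in the leave-outs. A. suecica against AlloF8, 5 as reported, called 2 after rescaling, 2 with the replicate block and 2 to 4 in the leave-outs. There KIN2 was 0.14 after rescaling, 0.0027 without replicate 2 of A. suecica and -1.07 to 1.0 without a library of AlloF8; KIN1 ran from -0.54 to 1.48 and COR15B from -1.97 to 0.67. The fit of A. suecica with 1 library left assumes that it varies like the others. COR15A rests on its transcript model, an alternative chosen after seeing the data. Where calls changed, the cause was not tested. Read depth is unknown, so its limits could not be computed.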

Other observations

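Over the 16 libraries, the genes whose log2 level followed the mean profile of 8 of the members most closely (LTI65, with missing values, was left out) were ENP (AT4G31820, r = 0.956), AT1G26920 (r = 0.954), ABCB19 (r = 0.93), AT5G48900 (r = 0.926) and the dehydrin gene LTI30 (r = 0.923), of 11506 genes compared. Libraries share their replicate numbers, so these are descriptions with no test. Pairs of the 8 members themselves ran from r = -0.768 (ERD10 and RD22) to 0.929 (COR47 and ERD10). The mean profile therefore does not stand for each member.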
